A study of Mus musculus with 24 samples.

Results

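The comparison described here sets kidneys that lost Wt1 in the forming nephron, Wnt4+/CreGFP Wt1co/co, against Wnt4+/CreGFP kidneys with an intact Wt1 gene. RNA of whole kidneys from embryos at E18.5 was measured on single-colour bead arrays, 3 arrays in each of the 2 groups, which belong to a series of 24 arrays in 8 groups. Every gene whose detection p was below 0.01 on 3 or more of these 6 arrays was taken, which gave 8469 of the 17951 genes of the file (47.2%). The Wnt4+/CreGFP Wt1co/co kidneys carry conditional Wt1 alleles and 1 Wnt4 allele in which a Cre recombinase fused to green fluorescent protein has been knocked in. The Wnt4+/CreGFP kidneys carry the same knock-in with wild-type Wt1, so every kidney of the comparison has 1 Wnt4 allele taken up by the knock-in. The labels give no treatment for either group. The labels give the strain as C57BL/6, whereas the methods give a mixed C57BL/6 and 129Ola background. The knock-in driver is active from the pretubular aggregate onward, and the nephron that grows from it inherits the recombined allele. For further comparison, Pax8+/Cre Wt1co/co and Pax8+/Cre kidneys carry a Cre knocked into 1 Pax8 allele, Nes-Cre Wt1co/co and Nes-Cre kidneys carry a Nes-Cre transgene, and Wt1co/co kidneys carry the conditional alleles without Cre. Wild-type kidneys complete the 8 groups, all at E18.5. Wt1 itself was not analysed here, and the loss of its transcript could therefore not be checked in the 6 arrays.

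Nephrons form when the cap mesenchyme, a population of progenitors around the tips of the branching ureteric bud, condenses and turns into an epithelial vesicle. Wnt9b from the bud induces Wnt4 in the pretubular aggregate, and Wnt4 drives the mesenchymal-to-epithelial transition. The vesicle lengthens through a comma-shaped and an S-shaped body, whose proximal end gives the podocytes of the filter, followed by the proximal tubule, the loop of Henle and the distal tubule. Wt1 encodes a zinc finger transcription factor that is present in the progenitors, then becomes confined to the proximal end of the nephron and finally to the podocytes. The comparison asks what the kidney at the end of gestation lacks, keeps or gains when Wt1 is removed at about the time of this transition.

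Of the 8469 genes tested, 1239 fell in the Wnt4+/CreGFP Wt1co/co kidneys (14.6%) and 1368 rose (16.2%) at an adjusted p under 0.05 by limma. In the text that follows, the mutant kidneys are Wnt4+/CreGFP Wt1co/co and the control kidneys are Wnt4+/CreGFP, a level is a normalized log2 intensity of 1 gene, and a change is the mutant mean minus the control mean on that scale, with its standard error (SE) from 3 arrays a group. Large changes ran mainly downward, with 310 genes lowered by more than 2-fold against 61 raised, and 79 lowered by more than 4-fold against 8 raised. Among called genes the median change was −0.56 for those that fell and 0.42 for those that rose. The 3 mutant values lay wholly below the 3 control values in 1688 genes (19.9%) and wholly above them in 2343 (27.7%). On the authors' own ratio values, where the median gene stood at −0.18 in place of 0.06, 1454 genes fell and 103 rose, and after scaling to the 75th percentile 1106 fell and 1556 rose, so for small changes the direction depends on the scaling. Without mutant replicate 1 the count of rises was 837, and without control replicate 2 or 3 it was 905 or 727. In the whole-kidney samples, fewer cells of a type and less RNA per cell cannot be told apart.

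The 6 arrays had 8216 to 8432 genes detected on each. Before normalization the 75th percentile of intensity was 176 to 226 on mutant arrays and 217 to 399 on control arrays. Correlations across genes were 0.9895 to 0.9908 between mutant arrays, 0.9914 to 0.9939 between control arrays and 0.952 to 0.9631 between the groups. Genes detected in all 6 arrays numbered 7454. A further 123 were detected in all 3 control arrays and in no mutant array, of which 116 fell, and 74 were detected in all 3 mutant arrays and in no control array, of which 58 rose. Such genes passed the filter through 1 group alone, so they are given as bounds (at least so many fold), and for several gene groups the counts are also given for members detected in all 6 arrays. Sex was not balanced: Xist was high in mutant replicate 1 and in control replicates 2 and 3. With the Xist level in the model 1169 genes fell and 1266 rose. With Wt1co/co kidneys as the control 1255 of the 8469 genes fell and 1524 rose, and counts of gene groups against that control are to be read beside these. Some genes of chromosome 2, which carries Wt1, also differed in Wt1co/co kidneys without Cre and are described at the end.

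**Figure D1:**
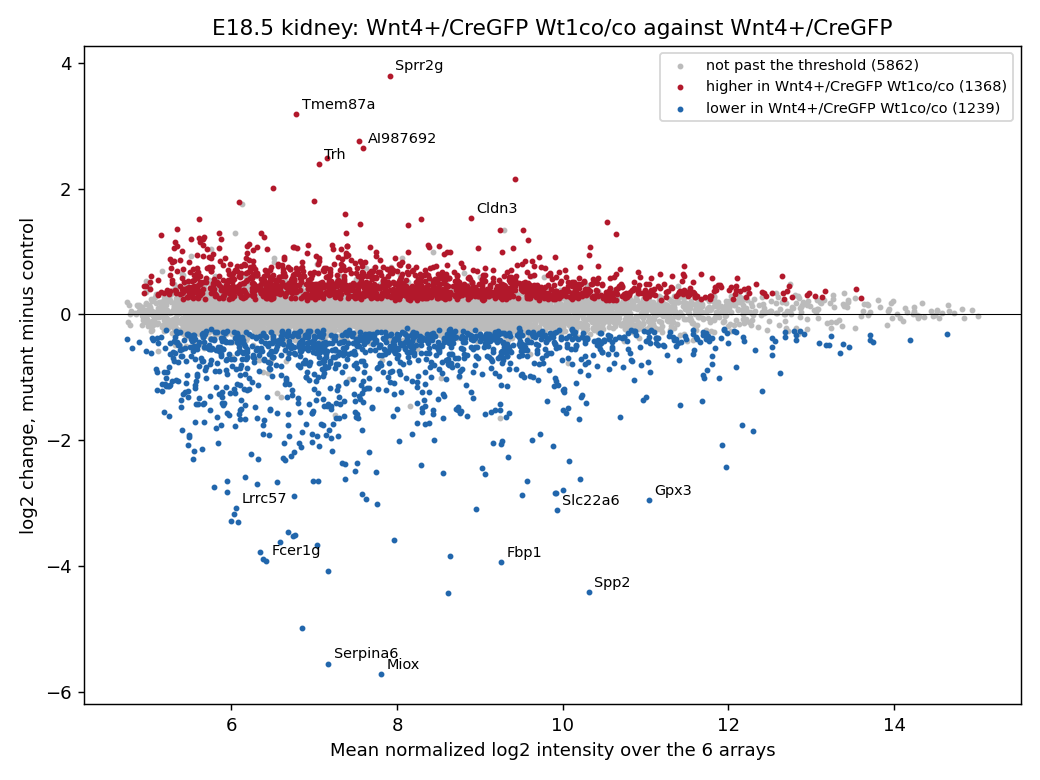
Change in the Wnt4+/CreGFP Wt1co/co kidneys against the Wnt4+/CreGFP kidneys (log2) plotted against the mean level over the 6 arrays (log2 intensity) for the 8469 genes tested, with called genes coloured. The 1239 falls reach much further from 0 than the 1368 rises.

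The deepest falls lay in enzymes, carriers and secreted proteins of the proximal tubule, the segment that takes back sugar, amino acids, phosphate and organic ions from the filtrate. Promoters of 6 of the 8 largest falls among genes detected in both groups (Spp2, Prodh2, Fbp1, G6pc, Gsta2 and Slc22a6; the other 2, Defb19 and Ttr, were not searched) were searched for matches to GTTAATNAT and CAAAGTCCA on both strands, the motifs of HNF1 and HNF4, regulators of proximal tubule genes. The RefSeq promoter windows run from 250 bases before to 50 after the start site on GRCm38.p6. An HNF1 match stood in 2 of the 6, Prodh2 and G6pc, and no HNF4 match in any, whereas 0.801% and 0.475% of all 32851 promoters held these letters. The 2 promoters with a match are printed because they are the 2 among these deepest falls that hold one, with the matching letters in capitals. In Prodh2 (chr7:30493408-30493707, plus strand) the match starts 127 bases before the start site and reads on the opposite strand, and in G6pc (chr11:101367466-101367765, plus strand) it starts 221 bases before it.
Prodh2: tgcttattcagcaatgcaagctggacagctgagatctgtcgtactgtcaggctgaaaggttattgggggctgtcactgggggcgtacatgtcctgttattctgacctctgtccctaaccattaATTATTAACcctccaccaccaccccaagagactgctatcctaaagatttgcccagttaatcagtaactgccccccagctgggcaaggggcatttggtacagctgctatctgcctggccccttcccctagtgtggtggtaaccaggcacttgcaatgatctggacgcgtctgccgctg
G6pc: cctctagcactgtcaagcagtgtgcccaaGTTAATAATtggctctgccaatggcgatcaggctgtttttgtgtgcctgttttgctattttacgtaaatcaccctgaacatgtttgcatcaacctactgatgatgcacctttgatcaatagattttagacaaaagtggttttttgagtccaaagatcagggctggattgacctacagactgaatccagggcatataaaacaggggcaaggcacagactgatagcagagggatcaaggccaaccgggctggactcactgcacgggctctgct
A match to letters describes the sequence and was not tested as a binding site.

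Gluconeogenesis and fructose use fell as a whole: of 11 genes on the array 9 were tested and all 9 fell, with a median change of −2.05, and the 7 that were detected in all 6 arrays all fell too. Fbp1, the fructose bisphosphatase of gluconeogenesis, had levels of 7.17, 6.82 and 7.87 in the mutant kidneys and 11.12, 11.34 and 11.22 in the control kidneys. No mutant value came within the control range, and the change was −3.94 ± 0.23 (SE, adjusted p = 1.4e-05). G6pc, which releases free glucose from glucose 6-phosphate, stood at 4.88, 5.20 and 5.50 in the mutant kidneys and 8.71, 8.81 and 9.07 in the control kidneys. Only mutant replicate 3 was detected there, and the change was −3.67 ± 0.16 (SE, adjusted p = 4.1e-06). Pcx, pyruvate carboxylase, fell by 2.05 (adjusted p = 1.4e-05). Sord, sorbitol dehydrogenase on chromosome 2, fell by 2.50 and kept this against Wt1co/co kidneys, where the change was −2.54 (adjusted p = 7.5e-10). Among glycolysis enzymes and carriers of glucose and lactate, of 15 tested 2 fell (Aldoc by 0.63, Pkm2 by 0.63) and 2 rose (Slc2a3, a glucose transporter, by 0.66, Eno2 by 0.61), with a median change of 0.10 against 0.06 for all genes. The shares of the 15 were 13.3% lower and 13.3% higher, near the 14.6% and 16.2% of all genes. On the authors' ratio values 5 of the 15 were lower and none higher. Left-out arrays changed the count of falls to 1 without mutant replicate 2 or control replicate 1 or 2 and that of rises to 0 without mutant replicate 1 or control replicate 1 or 3 and 1 without mutant replicate 3.

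Carriers of the proximal tubule numbered 47 on the array, of which 28 were tested, 26 fell and none rose, with a median change of −1.51. All 17 detected in every array fell. Slc22a6, the organic anion transporter of the basolateral membrane, had 7.85, 8.49 and 8.77 in the mutant kidneys and 11.36, 11.62 and 11.46 in the control kidneys. The groups stood far apart, with a change of −3.11 ± 0.21 (SE, adjusted p = 2.7e-05). Slc34a1, the sodium phosphate cotransporter of the brush border, had 10.51, 10.66 and 11.10 in the mutant kidneys and 13.24, 13.21 and 13.10 in the control kidneys, which gave −2.43 ± 0.15 (SE, adjusted p = 1.6e-05). The mutant arrays remained far above background, and the groups did not overlap. With all 24 arrays sharing 1 estimate of the spread this gene was not called. Slc13a2, a citrate and succinate carrier, was at 4.78, 5.02 and 5.07 in the mutant kidneys and 7.44, 7.89 and 7.66 in the control kidneys. Slc6a20b was at 4.57, 4.49 and 4.78 in the mutant kidneys and 7.28, 7.40 and 7.13 in the control kidneys. Neither was detected in a mutant array, and the falls were at least 6.05-fold and at least 4.72-fold. Slc13a3 and Slc27a2 lie on chromosome 2; they fell by 2.74 and 2.44, and against Wt1co/co kidneys their changes were −3.03 (adjusted p = 1.1e-05) and −2.14 (adjusted p = 0.03).

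Brush border enzymes, the peptidases and phosphatases on the microvilli, fell in 12 of 13 tested of 17 on the array, with a median of −1.43, and in 9 of the 10 detected throughout. Anpep, aminopeptidase N, had 7.36, 7.55 and 7.32 in the mutant kidneys and 9.79, 10.49 and 11.23 in the control kidneys. Every mutant array was below every control array, and the change was −3.09 ± 0.30 (SE, adjusted p = 0.00022). Dpep1, the dipeptidase that cleaves cysteinylglycine, fell by 2.65 (adjusted p = 2.3e-05), Mep1b, a meprin metalloprotease subunit, fell by 2.38 (adjusted p = 1.8e-06), and Mep1a, its partner, fell by 1.64 (adjusted p = 0.0011). Akp2, the tissue non-specific alkaline phosphatase, fell by 1.65. Of 9 genes of proximal tubule endocytosis 6 were tested and 4 fell (2 with Wt1co/co kidneys as the control and 2 in the fit of all 24 arrays), among them Pdzk1, a scaffold of brush border carriers (−2.08 ± 0.15 (SE, adjusted p = 3.4e-05)), and Amn, the partner of the receptor cubilin (−1.32 ± 0.14 (SE, adjusted p = 0.00031)). Against Wt1co/co kidneys neither was called, at −1.81 (adjusted p = 0.19) for Pdzk1 and −1.07 (adjusted p = 0.41) for Amn. Lrp2, the megalin receptor, was detected in no mutant array and in 2 control arrays and so was not tested. Anpep, Slc34a1 and Hnf4a, the proximal tubule markers tested, all fell.

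Amino acid metabolism fell in 17 of 22 tested of 32 genes, with none higher and a median of −0.73. Miox, myo-inositol oxygenase of the renal cortex, had the largest fall of the comparison, with 4.98, 5.02 and 4.82 in the mutant kidneys and 11.00, 10.51 and 10.47 in the control kidneys. It was not detected in any mutant array, so the fall is a bound of at least 49.6-fold. Prodh2, hydroxyproline dehydrogenase, had 4.99, 5.21 and 5.20 in the mutant kidneys and 9.02, 9.30 and 9.30 in the control kidneys and a change of −4.07 ± 0.11 (SE, adjusted p = 3e-07). Ass1, argininosuccinate synthase, which makes arginine in the proximal tubule, stood at 8.46, 8.45 and 8.57 in the mutant kidneys and 11.41, 11.21 and 11.39 in the control kidneys. Ass1 lies on chromosome 2, and its change of −2.84 was −3.08 (adjusted p = 1e-06) against Wt1co/co kidneys. Bhmt2 and Fah, of methionine and tyrosine metabolism, fell by 2.39 and 2.33. Glutathione metabolism was divided, with 11 of 28 tested lower and 4 higher (2 without mutant replicate 3 or control replicate 3, and 1 in the authors' ratio values). Gsta2, a glutathione transferase, had 5.57, 6.42 and 6.50 in the mutant kidneys and 9.93, 9.64 and 9.71 in the control kidneys, with no overlap and a change of −3.59 ± 0.23 (SE, adjusted p = 2.1e-05). Gpx3, the secreted glutathione peroxidase that the proximal tubule supplies to plasma, had 9.28, 9.46 and 9.95 in the mutant kidneys and 12.47, 12.59 and 12.50 in the control kidneys and a change of −2.95 ± 0.16 (SE, adjusted p = 9.7e-06). Gss, glutathione synthetase on chromosome 2, fell by 1.65, against −1.63 (adjusted p = 0.00018) with Wt1co/co kidneys as the control.

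Fuel use by mitochondria and peroxisomes fell less. Of 24 genes of fatty acid oxidation and the peroxisome 13 fell and 1 rose, with a median of −0.31, and 8 fell against Wt1co/co kidneys. Dao1, D-amino acid oxidase, fell by 2.02 (adjusted p = 0.0049), Acox2, a branched-chain acyl-CoA oxidase, by 1.92 and Acaa1b, a peroxisomal thiolase, by 1.52. The single rise was Cat, catalase, at 1.00, a gene on chromosome 2 whose change was 0.06 (adjusted p = 0.76) against Wt1co/co kidneys. Respiratory chain subunits moved by small steps, with 28 of 62 tested lower and a median of −0.26. With Wt1co/co kidneys as the control 29 were lower and 7 higher, where 1255 of all 8469 genes were lower and 1524 higher. The count of falls was 18 without mutant replicate 1 or control replicate 3. The 1 rise was called in some leave-outs only (0 without mutant replicate 1, 2 or 3 or control replicate 2 or 3). Cox7a1, a cytochrome c oxidase subunit of oxidative tissues, moved most, with 7.34, 7.71 and 7.57 in the mutant kidneys and 9.33, 8.77 and 8.71 in the control kidneys and a change of −1.40 ± 0.17 (SE, adjusted p = 0.00074). Cox5a and Sdhb followed at −0.56 and −0.55.

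Plasma carriers and proteins secreted by the kidney fell in 16 of 19 tested of 26, with a median of −1.37, and in 10 of the 13 detected throughout. The falls numbered 10 with Wt1co/co kidneys as the control and 9 in the fit of all 24 arrays. Serpina6, corticosteroid-binding globulin, stood at 4.42, 4.39 and 4.37 in the mutant kidneys and 9.73, 10.28 and 9.83 in the control kidneys. It was at the background of every mutant array, a fall of at least 30.2-fold. Spp2, a secreted phosphoprotein, had 8.21, 7.99 and 8.11 in the mutant kidneys and 12.77, 12.50 and 12.29 in the control kidneys. The 2 groups lay far apart, with a change of −4.42 ± 0.13 (SE, adjusted p = 5.3e-07). Ttr, the thyroxine carrier transthyretin, had 6.45, 6.54 and 7.14 in the mutant kidneys and 10.32, 10.71 and 10.64 in the control kidneys and a change of −3.85 ± 0.19 (SE, adjusted p = 6.1e-06). Cyp27b1, the enzyme that makes active vitamin D in the proximal tubule, had 4.34, 4.46 and 4.51 in the mutant kidneys and 7.86, 8.18 and 8.91 in the control kidneys, detected in the control arrays alone, and fell at least 9.78-fold. Kap, the kidney androgen-regulated protein of the proximal tubule, had 4.46, 4.51 and 4.39 in the mutant kidneys and 8.20, 8.40 and 8.07 in the control kidneys and fell at least 9.16-fold. Further bounds on falls were at least 10.7-fold for Cml4, 10.7-fold for Serpina10, 10.4-fold for Slc16a4 and 10.3-fold for Tmem25. Serpinf2, the plasmin inhibitor antiplasmin, fell by 3.01, and AI317395 by 2.93. Of 7 liver genes tested 4 were lower (1 against Wt1co/co kidneys), but 3 of these 4 were detected in no mutant array, and the liver marker Alb was detected in none of the 6 arrays.

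**Figure D2:**
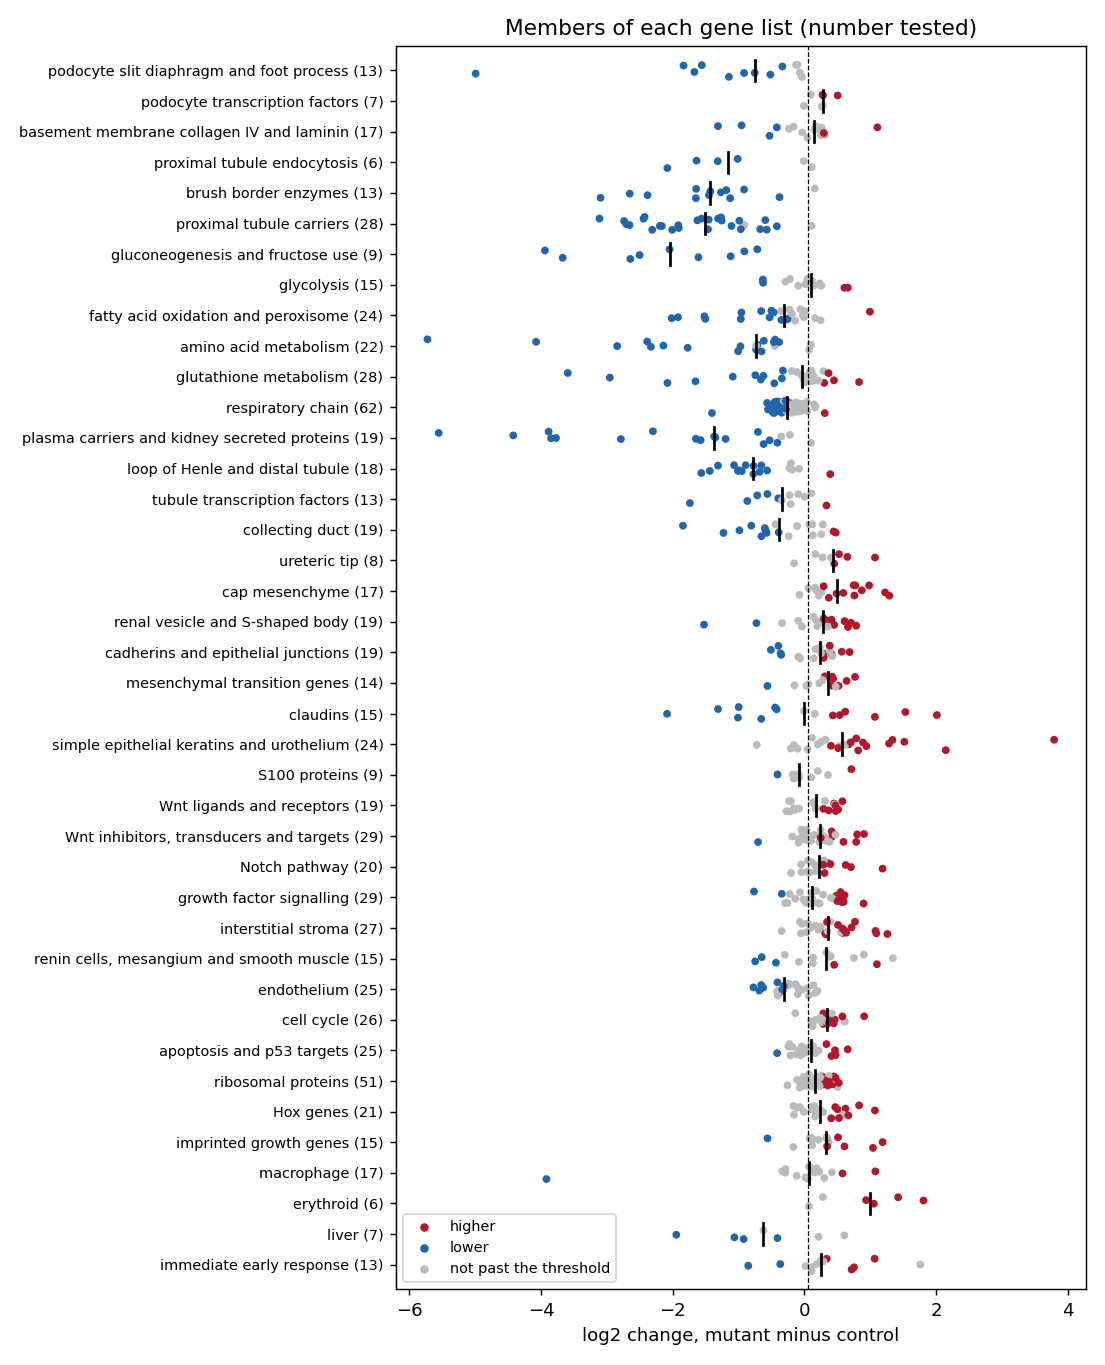
Change in the Wnt4+/CreGFP Wt1co/co kidneys against the Wnt4+/CreGFP kidneys (log2) for the tested members of each gene group, 1 point a gene, with the median of each group and a dashed line at the median of all 8469 genes (0.06). The groups of the proximal tubule lie to the left, and those of progenitors, stroma, keratins and cell cycle lie slightly to the right.

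Podocytes, whose interlocking foot processes form the slit diaphragm of the glomerular filter, depend on Wt1 in the mature kidney. Of 19 podocyte genes of the slit diaphragm and foot process 13 were tested, 9 fell and none rose, with a median of −0.75, and 6 of the 8 detected in every array fell. Podxl, the sialomucin podocalyxin that keeps foot processes apart, had 7.75, 7.56 and 7.27 in the mutant kidneys and 8.77, 9.28 and 9.20 in the control kidneys, with no overlap and a change of −1.56 ± 0.16 (SE, adjusted p = 0.00032). Its level stayed well above background in the mutant kidneys. Sema3g had 4.43, 4.42 and 4.61 in the mutant kidneys and 5.88, 6.82 and 6.26 in the control kidneys and fell at least 2.45-fold. Rhpn1, a scaffold protein, fell by 1.67 and Clic5, a foot process protein, fell at least 1.72-fold. Of the other podocyte markers, Nphs1 and Synpo were not analysed here, and Ptpro was detected in 2 control arrays and no mutant array. Transcription factors listed for the podocyte lineage did not fall. Of 7 tested, 3 rose, Dach1 by 0.51, Tcf21 by 0.28 and Hey1 by 0.28, and the count was 0 without control replicate 3 and 1 without mutant replicate 1 or control replicate 1. On the ratio values made by the authors Tcf21 and Hey1 stood at −0.09 and −0.07 and none of the 7 was called. Tcf21 and Hey1 are also active outside podocytes.

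Col4a3 and Col4a4, chains of the mature glomerular basement membrane, fell. Col4a3 had 5.44, 5.25 and 5.00 in the mutant kidneys and 6.45, 6.60 and 6.58 in the control kidneys and was detected only in control arrays, a fall of at least 2.48-fold. Its partner Col4a4 had 5.33, 4.83 and 5.16 in the mutant kidneys and 6.14, 6.06 and 5.98 in the control kidneys and a change of −0.95 ± 0.13 (SE, adjusted p = 0.0012). Col4a5 and Lamb2, which belong to the same membrane, were not called, at −0.23 (adjusted p = 0.087) and 0.05 (adjusted p = 0.77). The widespread chains Col4a1 and Col4a2 fell by 0.42 and 0.53. Of the 17 collagen IV, laminin and linker genes tested, 4 fell and 2 rose (1 without mutant replicate 1 or 3 or control replicate 1 or 3 for the rises), and of the 13 detected in every array 2 fell and 1 rose. The shares of the 17 were 23.5% lower and 11.8% higher, against 14.6% and 16.2% of all genes. Set against Wt1co/co kidneys 3 of the 17 fell and 4 rose. Lamb3, a laminin chain of stratified epithelium, was detected in the mutant arrays alone, at 6.61, 5.90 and 6.11 in the mutant kidneys and 5.22, 5.12 and 4.95 in the control kidneys, and rose at least 2.12-fold.

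The loop of Henle and distal tubule, the segments of salt recovery, fell by smaller amounts than the proximal tubule. Of 24 genes 18 were tested, 13 fell and 1 rose (0 without mutant replicate 1 or 3 or control replicate 1 for the rise), with a median of −0.77. Umod, uromodulin of the thick ascending limb, had 7.28, 8.27 and 8.40 in the mutant kidneys and 9.59, 9.89 and 9.16 in the control kidneys. Mutant and control values did not overlap, and the change was −1.56 ± 0.30 (SE, adjusted p = 0.0064). Fxyd2, the gamma subunit of the sodium pump, fell by 1.44 and Cldn10, a sodium pore of the tight junction, by 1.31. Slc12a1, the target of loop diuretics on chromosome 2, had 9.50, 9.75 and 10.03 in the mutant kidneys and 10.46, 10.82 and 10.67 in the control kidneys and a change of −0.89 ± 0.15 (SE, adjusted p = 0.0032), with −0.70 (adjusted p = 0.57) against Wt1co/co kidneys. Slc12a3, the target of thiazides, had 7.51, 7.63 and 7.56 in the mutant kidneys and 8.32, 8.63 and 8.60 in the control kidneys and a change of −0.95 ± 0.10 (SE, adjusted p = 0.00037). With Wt1co/co kidneys as the control, or with all 24 arrays fitted together, 4 of the 18 were called lower. The smaller count was obtained where the spread was shared with the other groups.

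Transcription factors of the tubule fell in 6 of 13 tested (3 in the fit of all 24 arrays) and rose in 1 (0 without mutant replicate 2 or 3 or control replicate 1 or 3 for the rise). Nr1h4, the bile acid receptor, had 5.85, 6.51 and 6.29 in the mutant kidneys and 8.09, 7.86 and 7.91 in the control kidneys and a change of −1.74 ± 0.16 (SE, adjusted p = 0.00016). Hnf4a, the regulator of proximal tubule genes, had 8.75, 8.84 and 9.15 in the mutant kidneys and 9.82, 9.85 and 9.67 in the control kidneys. The control arrays were all higher, with a change of −0.87 ± 0.12 (SE, adjusted p = 0.0012), and as Hnf4a lies on chromosome 2 the change against Wt1co/co kidneys is given too, −0.59 (adjusted p = 0.4). Esrra, a nuclear receptor that drives mitochondrial genes, fell by 0.71 (adjusted p = 0.0008).

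The collecting duct, which grows from the ureteric bud and not from the cap mesenchyme, also differed between the groups. Of 26 genes 19 were tested, 9 fell and 2 rose, with a median of −0.39. Aqp2, the vasopressin-regulated water channel of principal cells, had 6.88, 6.45 and 6.63 in the mutant kidneys and 8.67, 8.29 and 8.53 in the control kidneys. The 2 sets of arrays were separate, with a change of −1.84 ± 0.14 (SE, adjusted p = 4.7e-05). Slc26a4, the chloride and bicarbonate exchanger pendrin of intercalated cells, fell by 1.23, Atp6v1c2, a proton pump subunit of the same cells, by 0.99 and Scnn1a, a subunit of the epithelial sodium channel, by 0.81. Other principal cell genes were not called: Scnn1b had a change of 0.07 and Hsd11b2, which protects the mineralocorticoid receptor from cortisol, 0.12. Wnt7b, a ligand of the duct, rose by 0.48. With Wt1co/co kidneys as the control 4 of the 19 were called lower, and none was higher in the authors' ratio values. At the ureteric tip the direction was opposite, with 4 of 8 tested higher and none lower. Sox9, a transcription factor present in the tip, had 7.38, 7.18 and 7.26 in the mutant kidneys and 6.19, 6.27 and 6.14 in the control kidneys, no overlap, and a change of 1.07 ± 0.09 (SE, adjusted p = 6.8e-05). Etv4, a target of Ret signalling, rose by 0.53, a call lost without mutant replicate 1 or 2 or control replicate 2, while Ret and Wnt11 were detected in no array and were not tested. The count of rises was 2 without mutant replicate 1, and none was called with Wt1co/co kidneys as the control.

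**Figure D3:**
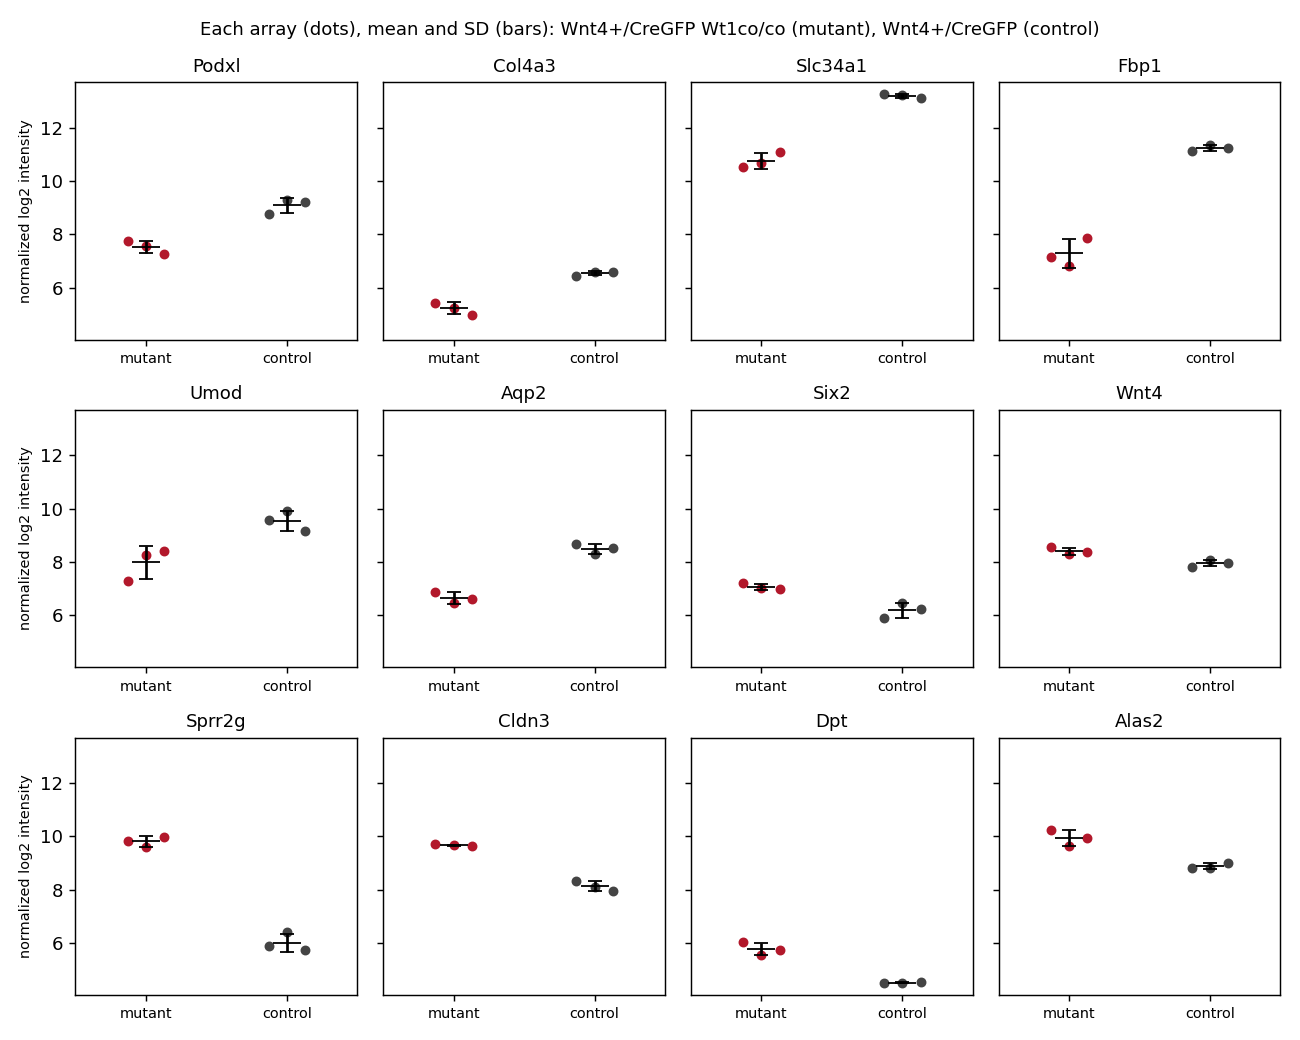
Log2 levels of 12 genes in each array, with the 3 Wnt4+/CreGFP Wt1co/co kidneys on the left of each panel and the 3 Wnt4+/CreGFP kidneys on the right, and bars at the mean and SD. Podxl, Slc34a1, Fbp1, Umod and Aqp2 lie lower in the mutant kidneys, and Sprr2g, Cldn3 and Dpt higher.

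Nephron progenitor genes were raised. In the cap mesenchyme 11 of 17 tested rose and none fell (26 on the array), as did 9 of the 15 detected in all 6 arrays, with a median of 0.49, which is 0.43 above the median of all genes. In the authors' ratio values the group stood 0.31 above the median of all genes and 4 were called, the count was 7 without control replicate 3, and with Wt1co/co kidneys as the control it was 3. Six2, the factor that keeps progenitors undifferentiated, had 7.20, 7.01 and 6.99 in the mutant kidneys and 5.89, 6.45 and 6.25 in the control kidneys. All mutant arrays exceeded the control arrays, and the change was 0.87 ± 0.14 (SE, adjusted p = 0.0031). Against Wt1co/co kidneys, however, it was −0.07 (adjusted p = 0.94). Eya1, a coactivator that works with Six2, had 6.70, 6.82 and 6.53 in the mutant kidneys and 5.52, 5.95 and 5.62 in the control kidneys and a change of 0.98 ± 0.13 (SE, adjusted p = 0.0011). Meox2 and Meox1, homeobox genes of the progenitors, rose by 1.29 and 0.77. Cited1, a marker of the least committed progenitors, had a change of 0.26 that was not called (adjusted p = 0.2).

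Genes of the next stage, vesicle to S-shaped body, went both ways, with 8 of 19 tested higher (5 without mutant replicate 1 or 2 or control replicate 1 or 2) and 2 lower and a median of 0.29. On the authors' scale of ratio values 4 of them were lower and none higher, and with Wt1co/co kidneys as the control 2 were higher and 3 lower. Osr2, a zinc finger gene of the forming nephron, had 9.47, 8.95 and 9.29 in the mutant kidneys and 10.67, 10.79 and 10.82 in the control kidneys and a change of −1.52 ± 0.13 (SE, adjusted p = 0.0001), the largest in the group. Jag1, a Notch ligand of the vesicle on chromosome 2, had 6.30, 6.24 and 6.67 in the mutant kidneys and 5.40, 5.95 and 5.74 in the control kidneys and rose by 0.71, with 1.27 (adjusted p = 0.0044) against Wt1co/co kidneys. Fgf8, the growth factor of nascent nephrons, rose by 0.61 and Sfrp2, a secreted Wnt modulator, by 0.79. Lhx1 and Pax8, early markers of the vesicle, were not called, with changes of −0.34 and 0.20.

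Wnt4, the driver locus, whose product induces the epithelial transition, had 8.55, 8.31 and 8.37 in the mutant kidneys and 7.83, 8.07 and 7.97 in the control kidneys. Mutant levels were above control levels in all arrays, with a change of 0.45 ± 0.10 (SE, adjusted p = 0.012), and both groups hold 1 knock-in allele. Set against Wt1co/co kidneys, which carry 2 intact Wnt4 alleles, the change was −0.45 (adjusted p = 0.024). Of 35 Wnt ligands and receptors 19 were tested, 7 rose and none fell, with a median 0.11 above that of all genes. With the authors' ratio values 2 of them were lower and none higher, and against Wt1co/co kidneys 6 were higher and 5 lower. The other called members were the receptor Fzd2 at 0.58 (not called without control replicate 2 or 3), the co-receptor Ror2 at 0.51, Wnt7b at 0.48, the R-spondin receptor Lgr5 at 0.47, Fzd7 at 0.37 and Ryk at 0.29 (not called without mutant replicate 1 or control replicate 1 or 3). Wnt9b, the inducer of Wnt4 in the bud, was not called at −0.16, nor was Wnt5a at −0.22. Of 29 tested inhibitors, transducers and targets of Wnt signalling 7 rose (24.1%, against 16.2% of all genes) and 1 fell (3.4%, against 14.6%). In the authors' ratio values 2 rose, and against Wt1co/co kidneys 10 rose and 4 fell. Notum, a secreted Wnt inhibitor, was detected in the mutant arrays alone, with 6.66, 5.96 and 5.91 in the mutant kidneys and 5.24, 5.37 and 5.20 in the control kidneys. Nkd2, an inhibitor of Dishevelled, rose by 0.80 and Nfatc4, a calcium-regulated transcription factor, by 0.59. The target gene Axin2 had a change of 0.32 that was not called, and Camk2b, a kinase of the calcium branch, fell by 0.70.

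In the Notch pathway, which patterns the proximal nephron, 8 of 20 tested rose and none fell. The count was 1 in the authors' ratio values, 4 with Wt1co/co kidneys as the control, and 2 without control replicate 3, 3 without mutant replicate 1 or control replicate 2 and 5 without control replicate 1. Dlk1, a Notch-related and imprinted ligand, had 10.45, 10.08 and 9.98 in the mutant kidneys and 8.90, 8.93 and 9.12 in the control kidneys and a change of 1.19 ± 0.13 (SE, adjusted p = 0.00047). Notch1, on chromosome 2, rose by 0.63, with 1.20 (adjusted p = 0.00048) against Wt1co/co kidneys, and its call was lost without control replicate 3. Of 29 growth factor genes 8 rose and 2 fell (1 without control replicate 1 for the falls), whereas in the authors' ratio values 1 rose and 4 fell. The shares of the 29 were 27.6% and 6.9%, against 16.2% and 14.6% of all genes. Fgf10, a ligand from the mesenchyme that promotes branching, had 7.55, 7.49 and 7.48 in the mutant kidneys and 6.68, 6.64 and 6.51 in the control kidneys and a change of 0.90 ± 0.08 (SE, adjusted p = 0.00014). Hbegf, an EGF receptor ligand, fell by 0.76.

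Stromal genes were raised. Of 27 tested of 35, 14 rose and none fell (10 of the 23 detected in all 6 arrays, and 8 of the 27 against Wt1co/co kidneys), with a median of 0.35, 0.29 above that of all genes. In the authors' ratio values the group stood 0.20 above the median of all genes and 3 were called, and the count was 9 without mutant replicate 1. Dpt, the matrix protein dermatopontin, had 6.03, 5.56 and 5.75 in the mutant kidneys and 4.52, 4.50 and 4.53 in the control kidneys. It was detected in every mutant array and no control array, a rise of at least 1.68-fold. Lum, the proteoglycan lumican, had 9.58, 8.87 and 8.70 in the mutant kidneys and 7.89, 8.06 and 7.95 in the control kidneys and a change of 1.08 ± 0.21 (SE, adjusted p = 0.0064). Col3a1, fibrillar collagen III, had 8.04, 8.11 and 8.57 in the mutant kidneys and 7.34, 7.48 and 7.74 in the control kidneys and rose by 0.72 (adjusted p = 0.012). Pdgfra, a receptor of stromal cells, rose by 0.57, and Foxd1, a marker of stromal progenitors, by 0.77, although the groups overlapped and the call was lost without mutant replicate 1 or 3 or control replicate 1, 2 or 3. Col1a1 was not called, at 0.03. Genes of the mesenchymal state overlapped this pattern, with 7 of 14 tested higher (4 without mutant replicate 1) and 1 lower, although in the authors' ratio values none was higher and 1 lower. Tgfb3 rose by 0.77, Mmp14 by 0.64 and Tgfb2 by 0.52, whereas Tgfb1 fell by 0.56. Cadherins and junction genes went both ways, with 6 of 19 higher (1 without mutant replicate 1 or control replicate 1, 2 without control replicate 3 and 3 without control replicate 2) and 4 lower (1 without mutant replicate 2 or control replicate 2 and 2 without mutant replicate 1 or 3 or control replicate 1). On the authors' ratio scale none was higher and 4 were lower, and against Wt1co/co kidneys 3 were higher and 1 lower. Cdh1, E-cadherin, had 9.40, 9.18 and 9.34 in the mutant kidneys and 8.53, 9.04 and 8.64 in the control kidneys and a change of 0.57 ± 0.14 (SE, adjusted p = 0.017), not called without mutant replicate 1 or control replicate 1 or 3.

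Vessels moved in the other direction. Of 25 endothelial genes tested 9 fell and none rose, with a median of −0.31. The falls numbered 4 with Wt1co/co kidneys as the control (with 1 rise), 4 in the fit of all 24 arrays and 16 in the authors' ratio values. Ehd3, an endocytic protein of glomerular endothelium, had 6.83, 6.87 and 6.70 in the mutant kidneys and 7.44, 7.65 and 7.63 in the control kidneys and a change of −0.77 ± 0.09 (SE, adjusted p = 0.00066). Gja5, connexin 40, fell by 0.68, and Cldn5 by 0.66. Plvap, the diaphragm protein of fenestrae, fell by 0.41 and Cdh5, VE-cadherin, by 0.39. The call of Cdh5 was lost without mutant replicate 1, 2 or 3 or control replicate 1 or 2, and its change was 0.25 (adjusted p = 0.22) against Wt1co/co kidneys. Pecam1 was not called at −0.32, and Kdr was detected in no array. Renin cells, mesangium and smooth muscle had 3 of 15 tested lower and 2 higher (1 without mutant replicate 1 or 3 or control replicate 1, 2 or 3 and 5 without mutant replicate 2 for the rises), and none was called against Wt1co/co kidneys. The shares of the 15 were 20.0% lower and 13.3% higher, near the 14.6% and 16.2% of all genes. Akr1b7, an aldo-keto reductase of renin cells, fell by 0.75, and Ren1, renin, had 9.57, 8.87 and 9.13 in the mutant kidneys and 9.81, 9.74 and 9.95 in the control kidneys and a change of −0.65 ± 0.16 (SE, adjusted p = 0.02), not called without mutant replicate 3 or control replicate 1 or 3. Des, desmin, which is present in mesangial and muscle cells, had 9.20, 8.82 and 8.74 in the mutant kidneys and 7.76, 7.66 and 8.04 in the control kidneys and rose by 1.10. Acta2 and Myh11 of smooth muscle were not called, at 0.33 and 0.75.

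Macrophage genes were little changed, with 2 of 17 tested higher and 1 lower and a median of 0.08. Csf1r and C1qa, which define the lineage, had changes of −0.29 and −0.12 and were not called. The gene that fell was Fcer1g, the signalling chain of Fc receptors, with 4.33, 4.39 and 4.65 in the mutant kidneys and 8.47, 8.03 and 8.62 in the control kidneys. It was detected in no mutant array, a fall of at least 10.1-fold, while Fcgr3, a receptor that signals through it, rose by 1.08. Red cell genes rose in 4 of 6 tested (2 against Wt1co/co kidneys), with a median of 1.00. Alas2, the haem synthesis enzyme of red cell precursors, had 10.22, 9.62 and 9.94 in the mutant kidneys and 8.80, 8.81 and 9.01 in the control kidneys and a change of 1.05 ± 0.15 (SE, adjusted p = 0.0015). Hbb-b1 rose by 0.94, Eraf, which stabilises alpha globin, by 1.42. Hba-a1 lay near the top of the intensity range, and no change can be read from it. How far red cell content moved with other results was not tested. Genes of the adrenal gland (13 on the array) and gonad (13) were detected in too few arrays to be tested, and the fat and nerve groups had 1 tested gene each, of which Lpl of the fat group fell by 0.99 (not called against Wt1co/co kidneys).

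The largest rise of the comparison was Sprr2g, a small proline-rich protein of cornified and urothelial surfaces, with 9.84, 9.60 and 9.98 in the mutant kidneys and 5.89, 6.40 and 5.75 in the control kidneys. The lowest mutant array exceeded the highest control array, and the change was 3.79 ± 0.17 (SE, adjusted p = 4.4e-06). Its neighbour in the family, Sprr2f, had 10.20, 10.39 and 10.91 in the mutant kidneys and 7.76, 9.11 and 8.19 in the control kidneys and a change of 2.15 ± 0.32 (SE, adjusted p = 0.0021). Probes of such near-identical copies may share signal. Of 24 keratins and genes of the urothelium tested, 13 rose and none fell, with a median of 0.58, 0.52 above that of all genes. In the authors' ratio values the group stood 0.39 above the median of all genes, with 7 higher and 1 lower, and the count of rises was 8 without control replicate 3. Klf5, a transcription factor of surface epithelia, had 10.19, 9.78 and 9.76 in the mutant kidneys and 8.59, 8.66 and 8.48 in the control kidneys and a change of 1.34 ± 0.13 (SE, adjusted p = 0.00017). Claudins, the sealing and pore proteins of tight junctions, were divided: of 15 tested 7 fell and 6 rose (3 rose in the authors' ratio values and 3 against Wt1co/co kidneys). Cldn23 had 7.65, 7.35 and 7.53 in the mutant kidneys and 5.52, 5.52 and 5.46 in the control kidneys and a change of 2.01 ± 0.10 (SE, adjusted p = 5.3e-06), Cldn3 had 9.69, 9.65 and 9.64 in the mutant kidneys and 8.32, 8.11 and 7.96 in the control kidneys and rose by 1.53, and Cldn4, which seals distal epithelia, rose by 1.07. Cldn2, the cation pore of the proximal tubule, fell by 2.09.

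Other large rises belonged to no list. Gsdmc3, a gasdermin, had 8.28, 8.44 and 8.44 in the mutant kidneys and 5.88, 5.73 and 6.11 in the control kidneys and a change of 2.48 ± 0.11 (SE, adjusted p = 4.4e-06). Trh, the precursor of thyrotropin-releasing hormone, had 8.34, 8.28 and 8.14 in the mutant kidneys and 5.50, 6.05 and 6.03 in the control kidneys and a change of 2.39 ± 0.15 (SE, adjusted p = 2e-05). Tff2, a trefoil peptide of mucosa, rose by 1.60 and Lrrn1, a leucine-rich repeat protein, by 1.52, while AI987692 and LOC100045250 rose by 2.64 and 2.75. Lypd2 rose at least 3.46-fold and Drd4, a dopamine receptor, at least 2.45-fold. Genes of DNA replication and mitosis rose in 14 of 26 tested with none lower and a median of 0.34, against 1 called in the authors' ratio values. The count was 5 without control replicate 2, 7 without mutant replicate 2 or control replicate 1 and 9 without mutant replicate 1 or control replicate 3. Mcm7, a subunit of the replicative helicase, had 7.98, 7.79 and 7.45 in the mutant kidneys and 6.50, 7.03 and 6.97 in the control kidneys and a change of 0.91 ± 0.17 (SE, adjusted p = 0.0068). Ribosomal protein genes rose in 12 of 51, in none with the authors' ratio values, and in 32 after scaling to the 75th percentile, so no direction is given for them. Hox genes rose in 8 of 21 (38.1%, against 16.2% of all genes). In the authors' ratio values 2 rose and 1 fell. With Wt1co/co kidneys as the control 1 of the 21 rose, where 1524 of all 8469 genes did. Hoxb9 rose by 0.83 and Hoxd12, on chromosome 2, by 1.07, with 0.40 (adjusted p = 0.089) against Wt1co/co kidneys. Of 15 imprinted growth genes 6 rose (2 in the authors' ratio values) and 1 fell, Phlda2, a brake on placental growth, by 0.56. Immediate early genes had 4 of 13 higher (1 in the authors' ratio values, and 2 without control replicate 1 or 2) and 2 lower (1 without mutant replicate 1 or 3 or control replicate 1 or 3), with Jun at 1.07 and Ier3 at −0.85. The shares of these 13 were 30.8% and 15.4%, against 16.2% and 14.6% of all genes.

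The Pax8+/Cre Wt1co/co kidneys, in which Wt1 is removed by a driver of the condensed mesenchyme, the nephron and the ureteric bud, were set against Pax8+/Cre kidneys in the same way, and the 2 changes were compared in 1 model of 12 arrays. Of 9838 genes tested 255 differed (2.59%), with the Wnt4-driven change below the Pax8-driven one in 171 and above it in 84. Of the 171, 155 fell in the Wnt4+/CreGFP Wt1co/co kidneys and 130 of these had the same sign of change in the Pax8+/Cre Wt1co/co kidneys, and of the 84, 76 rose in the Wnt4+/CreGFP Wt1co/co kidneys. Of 33 carriers of the proximal tubule tested here 13 were among the 171 and none among the 84, and of 20 plasma carriers and secreted proteins 4 and none. Of 31 stromal genes 3 were among the 84 and none among the 171, of 34 growth factor genes 1 was below and 2 above, and of 30 glutathione genes 2 were below and 1 above. After scaling to the 75th percentile 91 were below and 141 above, so the split between directions depends on the scaling. In the fit of all 24 arrays fewer differed, 17 below and 8 above, with 32.0% above against 32.9% in the main fit. In the joint fit Slc22a6 changed by −3.02 in the Wnt4 comparison and by −1.92 in the Pax8 comparison, a difference of −1.09 (adjusted p = 0.059). Fbp1 changed by −3.92 in the Wnt4 comparison and −2.50 in the Pax8 comparison, a difference of −1.42 (adjusted p = 0.03). Umod changed by −1.59 with the Wnt4 driver and −0.28 with the Pax8 driver, a difference of −1.31 (adjusted p = 0.081), and Six2 by 0.97 with the Wnt4 driver and 0.21 with the Pax8 driver, a difference of 0.77 (adjusted p = 0.054). Among the 5 largest differences each way, Guca2b, the gut and kidney peptide uroguanylin, had a difference of −2.67 (adjusted p = 0.0037), Tmem25 of −2.97 (adjusted p = 0.00046), Uap1 of −2.67 (adjusted p = 0.0057) and Fcer1g of −4.47 (adjusted p = 0.00013), while Hist1h1b, a linker histone, had one of 1.57 (adjusted p = 0.00084). Fcer1g and Tmem25 were detected in no Wnt4+/CreGFP Wt1co/co array and Hist1h1b in no Wnt4+/CreGFP array, so these sizes rest in part on values at background. For Guca2b the 2 mutants overlapped and their controls did not. It had 9.18, 9.25 and 8.73 in Wnt4+/CreGFP kidneys and 7.09, 6.84 and 6.69 in Pax8+/Cre kidneys. The count above was 28 without Pax8+/Cre replicate 2, 29 without Pax8+/Cre replicate 3, 39 without control replicate 3, 45 without Pax8+/Cre Wt1co/co replicate 3, 46 without control replicate 1, 47 without control replicate 2, 54 without mutant replicate 1, 141 without Pax8+/Cre Wt1co/co replicate 1 and 142 without mutant replicate 2, and that below was 86 without Pax8+/Cre replicate 2 or Pax8+/Cre replicate 3, 108 without control replicate 2 and 111 without control replicate 1.

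**Figure D4:**
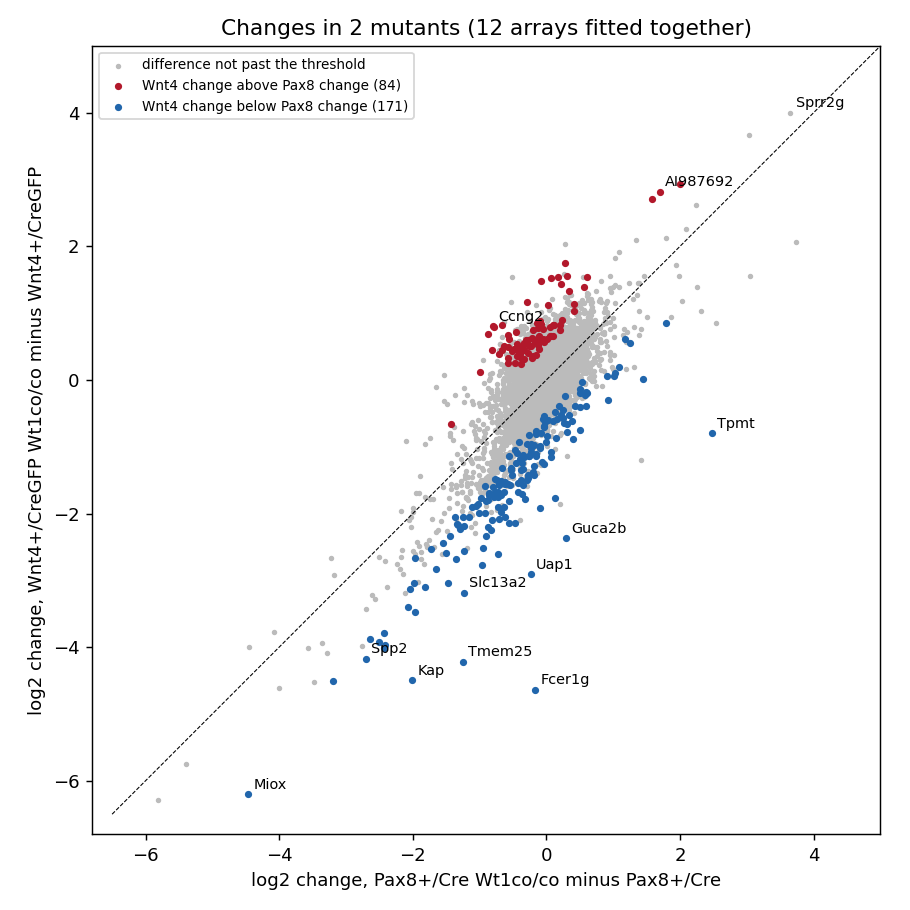
Change in the Wnt4+/CreGFP Wt1co/co kidneys against the Wnt4+/CreGFP kidneys plotted against the change in the Pax8+/Cre Wt1co/co kidneys against the Pax8+/Cre kidneys (both log2), 1 point a gene, with the 255 genes that differ coloured. Of these, 171 lie below the line of equal change and 84 above it.

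Nes-Cre acts earlier, in the kidney mesenchyme, and its mutant kidneys were set against Wt1co/co kidneys. Of 9570 genes tested 37 differed (0.387%), 29 with the Wnt4 change below the Nes-Cre change and 8 above. Without Nes-Cre Wt1co/co replicate 1, 204 were below and 113 above. The methods leave 1 sample of this mutant out after a quality check without naming it, and all 3 of its arrays in the files were used here. With any other array left out the counts were 8 to 48 below and 1 to 14 above, lowest without Wt1co/co replicate 1. The control of the Nes-Cre comparison carries the conditional Wt1 allele, whereas that of the Wnt4 comparison does not. Of the 36 differing genes that could be placed, 14 (38.9%) lay on chromosome 2, against 7.91% of the genes tested. In the Wnt4 minus Pax8 difference, where neither control carries the conditional allele, the share was 8.26% against 7.89%.

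Chromosome 2 therefore needed separate treatment, since the mutant kidneys carry the Wt1co/co alleles and the control kidneys do not, and a change that comes with the allele and one that comes with loss of Wt1 cannot be told apart in the 6 arrays. Lrrc57, a leucine-rich repeat gene, had 4.45, 4.57 and 4.53 in the mutant kidneys and 7.80, 7.40 and 7.59 in the control kidneys. It was at background in every mutant array. Normalized with all 24 arrays, its levels were 4.33, 4.34 and 4.36 in Wt1co/co kidneys without Cre and 8.15, 8.09 and 8.33 in wild-type kidneys, so the low level went with the allele in the absence of Cre. Against Wt1co/co kidneys its change was 0.20 (adjusted p = 0.15). Tmem87a, a membrane protein of the Golgi and the second-largest rise of the comparison, had 8.47, 8.28 and 8.37 in the mutant kidneys and 4.39, 4.97 and 6.21 in the control kidneys. The rise of 3.18 became 0.25 (adjusted p = 0.57) against Wt1co/co kidneys. Cd59a, the inhibitor of the complement attack complex, changed by −2.05 and by −0.41 (adjusted p = 0.011) in those 2 comparisons, Cat by 1.00 and 0.06 (adjusted p = 0.76) and 5830467P10Rik by −1.76 and 0.32 (adjusted p = 0.13), while Pdyn, which encodes prodynorphin and was detected in mutant arrays alone, rose at least 2.12-fold and changed by 0.21 (adjusted p = 0.5) against Wt1co/co kidneys. The other mutants did not all follow. In the Pax8+/Cre Wt1co/co kidneys 5830467P10Rik had 8.97, 8.61 and 8.47, with a change of −0.10 against Pax8+/Cre kidneys (adjusted p = 0.66), and Pdyn changed by −0.96 in Nes-Cre Wt1co/co against Wt1co/co kidneys (adjusted p = 0.0042). Not every chromosome 2 gene behaved so. Defb19, a beta-defensin and the largest fall among genes detected in both groups, had 6.64, 5.91 and 6.67 in the mutant kidneys and 10.54, 11.15 and 10.80 in the control kidneys and a change of −4.43 ± 0.22 (SE, adjusted p = 7.2e-06), with −4.06 (adjusted p = 0.00034) against Wt1co/co kidneys.

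**Figure D5:**
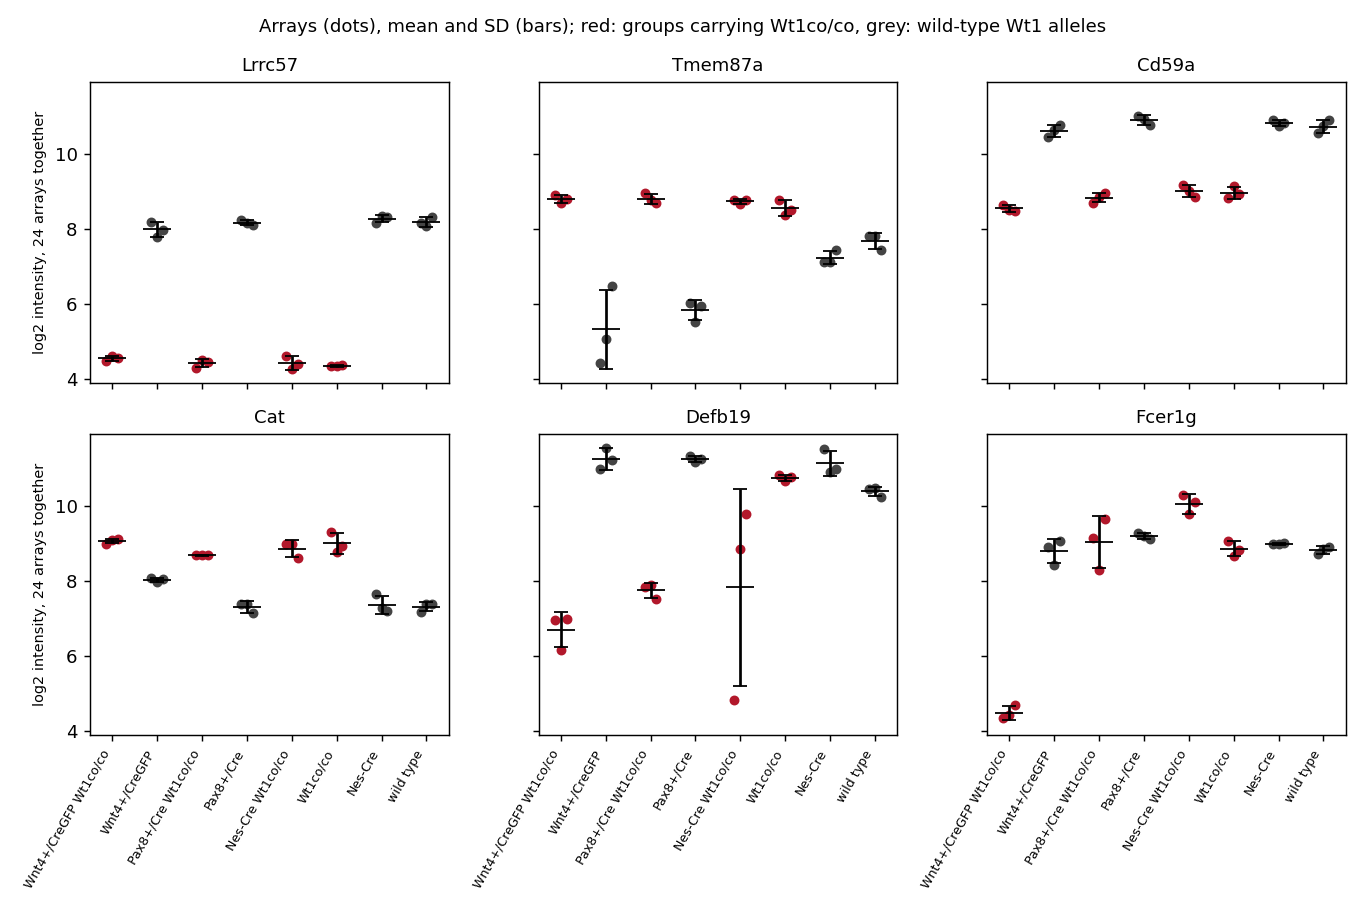
Log2 levels of 6 genes in the 3 arrays of each of the 8 groups, normalized together, with groups that carry Wt1co/co in red. Lrrc57 and Cd59a are low and Tmem87a and Cat high in every red group, whereas Defb19 is high in the Wt1co/co kidneys without Cre and Fcer1g is low in the Wnt4+/CreGFP Wt1co/co kidneys alone.

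Among the 100 tested genes on either side of Wt1 in the gene order of GRCm38.p6, 80 of 200 were called (40.0%), on the rest of chromosome 2 150 of 459 (32.7%), and over all genes 30.8%. This window was chosen after values were seen and was not tested. On chromosome 1, Fcer1g and Uap1, an enzyme of amino sugar synthesis, were low in the Wnt4+/CreGFP Wt1co/co kidneys and in no other group. Uap1 had 5.60, 5.69 and 6.33 in the Wnt4+/CreGFP Wt1co/co kidneys, 9.09, 8.03 and 8.80 in the Pax8+/Cre Wt1co/co kidneys, 9.05, 8.78 and 8.96 in the Nes-Cre Wt1co/co kidneys and 9.01, 8.12 and 9.06 in the Wnt4+/CreGFP kidneys. The changes of Fcer1g and Uap1 differed from those in the Nes-Cre comparison by −5.10 (adjusted p = 5.9e-06) and −2.49 (adjusted p = 0.019), and that of Uap1 was no longer called without mutant replicate 1 or 2, control replicate 3, Wt1co/co replicate 1 or 2 or Nes-Cre Wt1co/co replicate 3. Whether strain background, which the methods describe as mixed, has a part in these values was not tested.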

How the data were processed

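The authors extracted RNA from whole kidneys of E18.5 embryos and ran it on Illumina MouseRef-8 v2 bead arrays, in biological triplicate per the methods, which leave out 1 Nes-Cre Wt1co/co sample after a quality check without naming it. All 3 deposited arrays of that group were used here. The deposited intensities hold 1 linear value for each gene symbol, without background subtraction or normalization. The deposited detection p-values compare each value with negative control beads. The authors' ratio values, from GeneSpring, are linear ratios to the median of the 3 control arrays. The sources used here give neither the GeneSpring version nor how probes of a gene were combined. Intensity arrays 1 and 3 of each group match ratio columns 3 and 1 (r = 0.9998 to 1), and replicate numbers follow the intensities.

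With R 4.3.3 and limma 3.58.1, background mean and SD were read from the detection p-values, normexp and an offset of 16 were applied, and the fitted arrays were quantile-normalized and taken to log2. A gene entered the fit if detected (p under 0.01) on 3 or more arrays. Moderated tests (limma, two-sided, 4 residual and 4.21 prior degrees of freedom, median SE 0.0995) were adjusted by Benjamini-Hochberg over every gene tested, and a gene was called under 0.05. A change against Wt1co/co kidneys comes from 1 fit of all 24 arrays, so it crosses sets of arrays. Where 1 group had no detected array, the bound compares the bright mean with the dim group's mean after each dim value was raised to its array's detection floor if below it. The fit was tested on simulated data. The number of arrays limits the precision.

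The members and gene lists were chosen with earlier results of these data known. Genes were named by rule: the 12 largest changes each way among called, non-overlapping genes detected in both groups, the 8 largest bounds each way, up to 5 called members of each list, defining markers, Wnt4 with its pathway, and the 5 largest differences each way. The text leaves some of them unreported. Promoters were searched for genes with an entry in the RefSeq table, chromosome 18 aside. RefSeq symbols placed 8132 of the 8469 genes on chromosomes of GRCm38.p6. Alternatives were other background corrections, 75th percentile scaling, the authors' ratio values, other detection filters, larger fits, array weights, a block for the replicate number, Xist as a covariate, a fold over 1.5, Wt1co/co as control, and each array left out.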

Additional observations from a re-analysis of the deposited data

Results flagged for a closer look

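The change in the Wnt4+/CreGFP Wt1co/co kidneys differed from that in the Pax8+/Cre Wt1co/co kidneys, by a test of the difference itself, in 255 genes, and from that in the Nes-Cre Wt1co/co kidneys in 37. Against the Pax8+/Cre Wt1co/co change, the 5 largest differences upward were Ccng2 at 1.60, Hist1h1b at 1.57, Fat4 at 1.56, LOC667250 at 1.56 and Ywhae at 1.49. The 5 largest downward were Fcer1g at −4.47, Tpmt at −3.28, Tmem25 at −2.97, Uap1 at −2.67 and Guca2b at −2.67. Fat4 and Tpmt were detected in too few of the 6 Wnt4 arrays for the main comparison. Tpmt, thiopurine methyltransferase, had 5.07, 4.77 and 5.08 on the log2 scale in the Wnt4+/CreGFP Wt1co/co kidneys, 8.29, 7.74 and 8.01 on the log2 scale in the Pax8+/Cre Wt1co/co kidneys, 5.76, 5.89 and 5.66 on the log2 scale in the Wnt4+/CreGFP kidneys and 5.36, 5.41 and 5.83 on the log2 scale in the Pax8+/Cre kidneys, so its difference came with a high level in the Pax8+/Cre Wt1co/co kidneys. Fcer1g, Tpmt and Tmem25 were detected in no Wnt4+/CreGFP Wt1co/co array and Hist1h1b and Fat4 in no Wnt4+/CreGFP array, so their differences rest in part on values at background. Ccng2, Fat4, LOC667250 and Ywhae were each not called once 1 of several arrays was left out, Pax8+/Cre replicates 2 and 3 for all 4.

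Against the Nes-Cre Wt1co/co change, the differences upward were Tmem87a at 3.02, Pdyn at 2.17, Zfp395 at 2.12, Hist2h2bb at 1.55 and Cat at 1.15. Downward they were Fcer1g at −5.10, Lrrc57 at −3.14, Uap1 at −2.49, Cd59a at −2.13 and 5830467P10Rik at −1.93. Of these, Tmem87a, Pdyn, Cat, Lrrc57, Cd59a and 5830467P10Rik lie on chromosome 2, and in this difference of the 2 controls only that of the Nes-Cre mutant carries the conditional Wt1 alleles. Among these genes, Fcer1g and Lrrc57 were detected in no Wnt4+/CreGFP Wt1co/co array, Pdyn and Hist2h2bb in no Wnt4+/CreGFP array, and Lrrc57, Hist2h2bb and Zfp395 in no Nes-Cre Wt1co/co array, so those differences rest in part on values at background too. Tmem87a, Zfp395, Hist2h2bb, Cat and Uap1 were not called once 1 of several arrays was left out.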

How the results depend on the processing

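The count of falls, 1239, was 866 to 1454 over the alternatives other than the fold limit and the left-out arrays, and that of rises, 1368, was lower with the authors' ratio values (103) and in the fit of all 24 arrays (744). Requiring a fold over 1.5 left 326 rises and 597 falls. With 1 array left out, rises ranged over 727 to 1175 and falls over 923 to 1138. With those ratio values 6.62% of calls were rises, against 52.5%, and the cause was not tested. The Wnt4 minus Pax8 difference gave 141 above and 91 below after scaling to the 75th percentile and 8 above and 17 below in the fit of all 24 arrays. With 1 of its 12 arrays left out it gave 28 to 142 above and 86 to 211 below. The Wnt4 minus Nes-Cre difference gave 1 above and 15 below after scaling to the 75th percentile, 127 above and 145 below in the fit of all 24 arrays, and 1 to 113 above and 8 to 204 below with 1 array left out, highest without Nes-Cre Wt1co/co replicate 1.

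With the replicate number as a block 886 genes rose and 974 fell. The block gave 37 above and 117 below for Wnt4 minus Pax8, and 1 above and 14 below for Wnt4 minus Nes-Cre. Deviations of same-numbered arrays correlated at −0.18, −0.23 and −0.15, and those of the other pairs at −0.02 to 0.21. With 3 arrays a group these values cannot decide whether same-numbered arrays have anything in common.

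In the authors' ratio values Acta2 stood at −0.0020, Axin2 at −0.016, Cited1 at −0.049, Col1a1 at −0.30, Hey1 at −0.073, Hsd11b2 at −0.18, Lamb2 at −0.24, Pax8 at −0.054, Ryk at −0.075, Scnn1b at −0.27 and Tcf21 at −0.091. Against Wt1co/co kidneys 5830467P10Rik stood at 0.32, Axin2 at −0.15, C1qa at 0.11, Cdh5 at 0.25, Col4a5 at 0.29, Col1a1 at −0.56, Hsd11b2 at −0.31, Lrrc57 at 0.20, Six2 at −0.070 and Wnt4 at −0.45. C1qa was 0.039 after scaling to the 75th percentile, and Col1a1 −0.042 with array weights. Without 1 array Col1a1 ranged over −0.11 to 0.25, Lamb2 over −0.032 to 0.13 and Hsd11b2 over −0.022 to 0.26. Of the 166 genes given with a change in the text, a call was lost for 46 against Wt1co/co kidneys, 37 in the fit of all 24 arrays, 27 in the authors' ratio values and 13 with the neqc background, and for 4 to 11 with 1 array left out. Low signal limits genes near background, and 542 to 603 genes an array that lay more than 5 SD above the background mean had a detection p of 0.01 or more.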
